A study of Mus musculus with 3 samples.

Results

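DNA methylation was described at 10 genes of the pluripotency network of mouse embryonic stem (ES) cells, Pou5f1, Sox2, Nanog, Klf4, Esrrb, Zfp42, Tbx3, Prdm14, Tfcp2l1 and Sall4, out of 22367 protein-coding genes of the annotation used. The genes were chosen by name, and each was followed from 15 kb upstream of its annotated start to 5 kb past its end, in mm9 coordinates. Around each start, a promoter window reached 500 bp to either side. The remaining sequence was divided into 500 bp bins, which gave 947 bins with at least 1 CpG out of 4699905 such bins in the genome.

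The study asked how occupancy by DNA-binding factors relates to methylation, and 3 libraries entered here. Of these, 2 were replicates of CTCF ChIP-BisSeq, in which chromatin of wild-type ES cells of a mixed 129-C57Bl/6 background was precipitated with an antibody against the insulator protein CTCF, DNA of 5 ChIP experiments was pooled with Drosophila carrier DNA, and the precipitate was bisulfite sequenced. The third was a whole-genome bisulfite library (WG-BisSeq) of ES cells lacking REST, a zinc-finger repressor, of a strain labelled Black Agouti 129. The ES cells were grown with LIF and serum on feeder cells or gelatine, so reads from feeder cells may be present, and their part was not tested. From ChIP-BisSeq to REST knockout, genotype, strain and assay changed together and cannot be told apart. A wild-type WG-BisSeq library was not analysed here, and neither the cell identity nor the REST deletion can be checked from bisulfite counts of these genes.

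Pluripotency of ES cells is maintained by transcription factors that bind each other's promoters and enhancers and their own. OCT4, SOX2 and NANOG form the centre of this network, and LIF and WNT signals reach it through factors such as KLF4, TBX3, TFCP2L1 and ESRRB. In mammalian genomes most CpGs are methylated, whereas CpG-rich promoters are usually not, and distal regulatory elements that are bound by factors commonly show reduced methylation. Pou5f1, Nanog and Zfp42 acquire promoter methylation when ES cells differentiate.

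The REST knockout library held 273375318 observations of a CpG, and ChIP-BisSeq replicates 1 and 2 held 13411280 and 25262179. At least 1 observation fell on 78.0%, 12.4% and 33.1% of the 21342492 CpGs of the genome, respectively. Many ChIP-BisSeq values below therefore rest on few observations. Methylation is given as methylated observations over all observations, with an exact Clopper-Pearson 95% interval where one is stated. CpGs on the same read and PCR copies of a molecule are not independent, so these intervals cover counting error only and are too narrow, and test p-values are too small in the same way. Where 0 observations were methylated, "up to" gives 3 divided by the number of observations, as an approximate limit. The upper bound of the exact interval is mostly higher. For 0 of 16 at the Pou5f1 promoter in replicate 1 it is 20.6%.

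The promoters that carry the contrast within this group are shown as the 300 bases that precede the annotated start in mm9, with every CpG in capitals, because they differ in how many CpGs can be methylated at all. Sox2 has 30 CpGs in this stretch, Pou5f1 and Zfp42 have 10 each, and Nanog has 3. Esrrb is shown at 3 annotated starts, with 6, 3 and 9 CpGs.
Sox2 (chr3:34548627-34548926, plus strand): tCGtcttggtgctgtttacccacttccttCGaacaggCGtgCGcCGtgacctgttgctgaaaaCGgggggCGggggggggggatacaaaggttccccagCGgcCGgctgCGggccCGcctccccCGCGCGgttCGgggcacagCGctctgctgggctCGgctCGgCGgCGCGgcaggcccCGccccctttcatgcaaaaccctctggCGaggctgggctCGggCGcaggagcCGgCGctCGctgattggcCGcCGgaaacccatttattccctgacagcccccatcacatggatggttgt
Pou5f1 (chr17:35642682-35642981, plus strand): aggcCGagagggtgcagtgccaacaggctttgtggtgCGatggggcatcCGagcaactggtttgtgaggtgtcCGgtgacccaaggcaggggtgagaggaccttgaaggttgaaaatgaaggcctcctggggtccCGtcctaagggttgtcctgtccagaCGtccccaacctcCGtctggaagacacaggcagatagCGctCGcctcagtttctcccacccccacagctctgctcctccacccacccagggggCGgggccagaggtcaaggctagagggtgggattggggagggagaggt
Nanog (chr6:122657207-122657506, plus strand): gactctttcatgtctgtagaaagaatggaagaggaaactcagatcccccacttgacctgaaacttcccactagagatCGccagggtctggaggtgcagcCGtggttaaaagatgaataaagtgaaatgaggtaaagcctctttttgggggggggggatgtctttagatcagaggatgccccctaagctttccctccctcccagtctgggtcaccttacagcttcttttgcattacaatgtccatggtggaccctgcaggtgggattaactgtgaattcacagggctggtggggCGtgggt
Zfp42 (chr8:44392364-44392663, minus strand): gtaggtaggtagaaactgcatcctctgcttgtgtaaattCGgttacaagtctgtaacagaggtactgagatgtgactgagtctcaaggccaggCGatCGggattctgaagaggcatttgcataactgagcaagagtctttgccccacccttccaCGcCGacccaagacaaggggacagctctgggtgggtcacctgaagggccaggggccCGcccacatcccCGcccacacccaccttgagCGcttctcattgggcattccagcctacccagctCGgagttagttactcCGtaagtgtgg
Esrrb, start 1 (chr12:87701767-87702066, plus strand): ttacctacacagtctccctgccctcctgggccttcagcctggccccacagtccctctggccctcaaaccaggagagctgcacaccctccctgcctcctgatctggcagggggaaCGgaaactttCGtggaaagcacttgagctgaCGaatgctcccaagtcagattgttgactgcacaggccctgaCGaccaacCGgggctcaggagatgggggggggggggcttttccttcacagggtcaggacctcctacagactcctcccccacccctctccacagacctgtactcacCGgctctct
Esrrb, start 2 (chr12:87762294-87762593, plus strand): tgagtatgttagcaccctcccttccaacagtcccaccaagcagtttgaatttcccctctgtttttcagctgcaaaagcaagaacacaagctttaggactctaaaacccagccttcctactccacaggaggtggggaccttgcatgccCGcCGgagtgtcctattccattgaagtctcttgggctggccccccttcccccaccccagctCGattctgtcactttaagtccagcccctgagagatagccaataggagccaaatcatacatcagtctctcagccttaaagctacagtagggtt
Esrrb, start 3 (chr12:87810767-87811066, plus strand): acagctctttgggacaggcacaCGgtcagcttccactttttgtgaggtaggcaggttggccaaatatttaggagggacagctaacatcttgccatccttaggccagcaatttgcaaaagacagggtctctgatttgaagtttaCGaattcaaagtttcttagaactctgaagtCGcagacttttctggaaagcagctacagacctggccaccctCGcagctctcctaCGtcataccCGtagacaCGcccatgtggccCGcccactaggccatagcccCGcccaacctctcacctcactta

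At the promoter windows, 9 of the 10 genes were below 50% methylation in the REST knockout library, and Esrrb stood apart at its first start. Methylation was below 10% at 4 promoters, between 10 and 50% at 5 and above 50% at 1. Among the 19463 promoters of protein-coding genes with at least 20 observations, 54.7% were below 10%, 19.4% lay between 10 and 50% and 26.0% were above 50%. The median of all promoters was 8.22%.

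Of the 3 central factors, Sox2 and Pou5f1 had the lowest REST knockout values of the 10 promoters, with intervals that overlapped that of Tbx3, and Nanog had one of the highest. Pou5f1, which encodes OCT4, had 24 methylated of 594 observations in the REST knockout library (4.04%, interval 2.61 to 5.95%), 0 of 16 in ChIP-BisSeq replicate 1, which allows a share of up to 18.8%, and 3 of 51 in replicate 2 (5.88%). Sox2, which encodes the partner of OCT4 at composite sites, had 21 of 911 (2.31%, interval 1.43 to 3.50%), 0 of 26 (up to 11.5%) and 5 of 85 (5.88%) in the same order. Nanog, a homeobox factor, had 24 of 144 (16.7%, interval 11.0 to 23.8%), 7 of 34 (20.6%) and 6 of 26 (23.1%). The Nanog interval lay wholly above those of Pou5f1 and Sox2 in the REST knockout library, whereas the ChIP-BisSeq intervals of the 3 genes overlapped.

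Nanog and Pou5f1 differed in where the methylated observations lay. In Pou5f1, methylation in the REST knockout library fell on the upstream side, with 18 of 129 observations methylated from -500 to -251 bp (14.0%), 2 of 79 from -250 to -1 bp (2.53%) and 1 of 132 from the start to 249 bp after it (0.758%). The Pou5f1 CpG with the highest level among those covered at least 10 times lay at -251 bp, with 4 of 16 observations methylated. In the Nanog window, 2 of 42 observations were methylated from -500 to -251 bp and 4 of 11 from -250 to -1 bp. After the start, 5 of 14 were methylated up to 249 bp and 13 of 77 from 250 to 499 bp, so most methylated observations lay downstream. The Nanog CpGs at -355 and -333 bp had 0 of 15 and 0 of 16 methylated observations. Outside the window, the neighbouring stretch from -1000 to -501 bp had 29 of 33 (87.9%). That Nanog stretch was read at 6 of 6 in ChIP-BisSeq replicate 1 and 1 of 12 in replicate 2, so the replicates did not give 1 value for it. Between -250 and 249 bp, Nanog had only 25 observations in the REST knockout library at 7 CpGs, which limits what can be said of its start itself.

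The Nanog promoter sequence above contains the composite OCT4-SOX2 element TTTGCATTACAATG at chr6:122657432-122657445 on the plus strand. The element was searched on both strands, with any base at the 8th place, after the sequence had been seen, and 146 bins of the genome hold it (0.00311%). It contains no CpG, so its own methylation cannot be read. The octamer ATGCAAAT, the recognition sequence of OCT4 and other POU factors, matched the Zfp42 promoter at chr8:44392542-44392549 on the plus strand, opposite to the gene, and occurs in 4.29% of all bins.

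Of the factors that carry LIF and WNT input, Klf4, Tbx3 and Tfcp2l1 had low or intermediate promoters, and Esrrb is described further on. Klf4, a zinc-finger factor downstream of LIF signalling, had 124 of 1958 observations methylated in the REST knockout library (6.33%, interval 5.29 to 7.50%), 0 of 64 in replicate 1 (up to 4.69%) and 5 of 160 in replicate 2 (3.13%). Tbx3, a T-box factor, had 88 of 2062 (4.27%, interval 3.44 to 5.23%), 3 of 353 (0.850%) and 7 of 490 (1.43%). Tfcp2l1, a grainyhead-like factor annotated as Tcfcp2l1 in the annotation used, had 144 of 1268 (11.4%, interval 9.66 to 13.2%), 19 of 158 (12.0%) and 5 of 236 (2.12%). The Klf4 and Tbx3 windows were low in every library, and Tfcp2l1 was below 10% in replicate 2 only.

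Among the remaining factors, Zfp42, which encodes the marker protein REX1, had 44 of 413 observations methylated in the REST knockout library (10.7%, interval 7.85 to 14.0%), 0 of 8 in replicate 1 (up to 37.5%) and 1 of 41 in replicate 2 (2.44%). Prdm14, a PR-domain repressor of differentiation and of DNA methyltransferase genes, had 46 of 335 (13.7%, interval 10.2 to 17.9%), 3 of 37 (8.11%) and 6 of 33 (18.2%). Sall4, a zinc-finger partner of OCT4 and NANOG, had 29 of 171 (17.0%, interval 11.7 to 23.4%), 3 of 20 (15.0%) and 1 of 15 (6.67%). These 3 promoters lay close together, with overlapping intervals in the REST knockout library.

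The Sall4 window is centred on the start of a transcript that is not annotated as protein-coding. The first protein-coding Sall4 transcripts begin 742 bp downstream, where the window had 88 of 966 observations methylated in the REST knockout library (9.11%, interval 7.37 to 11.1%), 9 of 67 in replicate 1 (13.4%) and 8 of 146 in replicate 2 (5.48%). With 64 CpGs against 20, this second window is the CpG-rich one. At Sall4, then, the class of the promoter depended on which start was taken.

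Esrrb, an orphan nuclear receptor gene that spans chr12:87702067-87862578, differed from the other 9 genes at its first start. There 131 of 177 observations were methylated in the REST knockout library (74.0%, interval 66.9 to 80.3%) and 14 of 14 in ChIP-BisSeq replicate 2, and replicate 1 had none. Of its 23 CpGs, 8 were covered at least 10 times, and these ranged from 45.5% to 90.0%. The window at the second start, 60527 bp downstream, had 142 of 1410 observations methylated in the REST knockout library (10.1%, interval 8.55 to 11.8%), 2 of 10 in replicate 1 and 1 of 83 in replicate 2 (1.20%). The third start, 109000 bp downstream of the first, had 74 of 1301 (5.69%, interval 4.49 to 7.09%), 0 of 21 in replicate 1 and 13 of 50 in replicate 2 (26.0%). Both internal starts were therefore low in the REST knockout library while the first start was not, and at the third the replicates did not give like values.

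**Figure D1:**
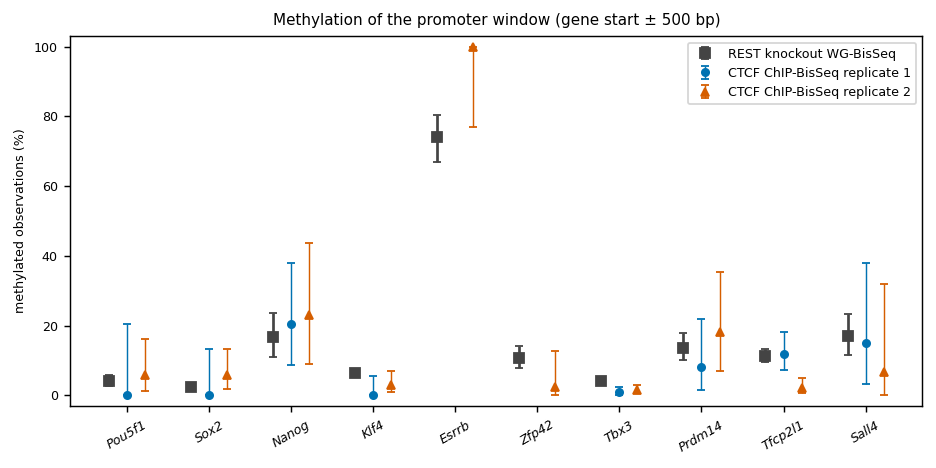
Methylated observations in percent (y axis) in the promoter window of each of the 10 genes (x axis), in the REST knockout WG-BisSeq library (squares) and in the CTCF ChIP-BisSeq replicates (circles and triangles), with exact 95% intervals as bars; replicates with fewer than 10 observations are not drawn. Esrrb at its first start is the only window near the top, at 74.0% in the REST knockout library, and the other 9 lie between 2.31% and 17.0% there.

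The plot of promoter windows shows how much wider the ChIP-BisSeq intervals were, and the plot of single CpGs shows how evenly the low windows were unmethylated. Sox2 had 38 of 39 CpGs covered at least 10 times below 10%, Tbx3 61 of 70, Klf4 79 of 102 and Pou5f1 17 of 21. Tfcp2l1 had 24 of 52 below 10% and a highest single CpG of 31.8%, and Prdm14 had 8 of 19 and a highest of 29.4%. No CpG covered at least 10 times exceeded 50% in the window of any gene except Esrrb, where 7 of 8 did.

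**Figure D2:**
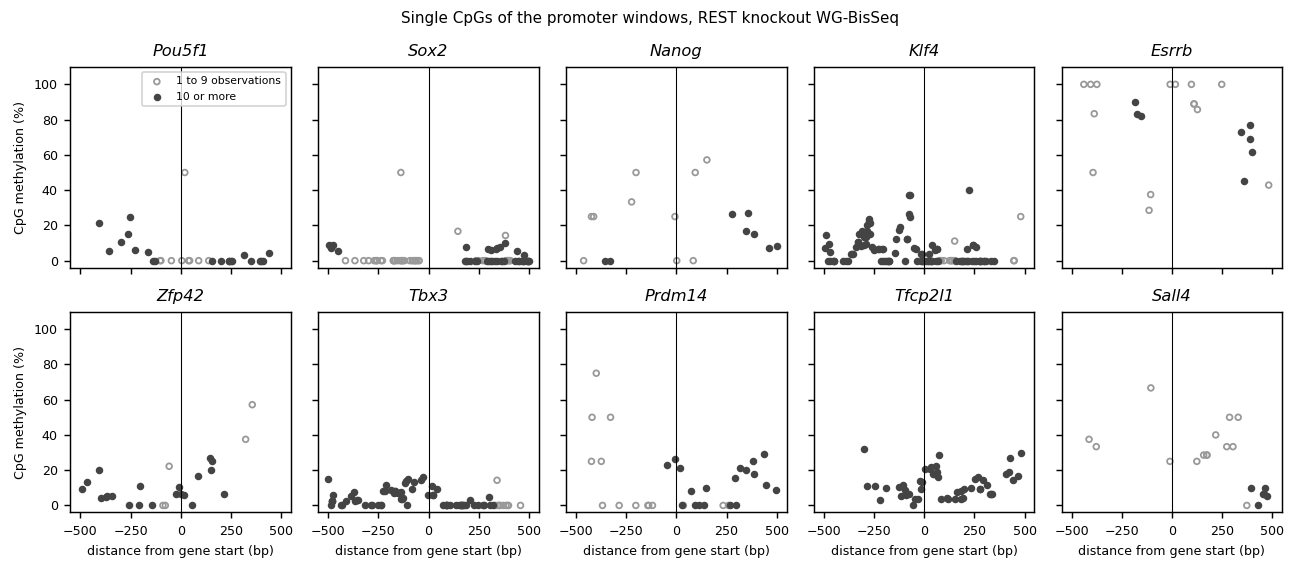
Methylation of single CpGs in percent (y axis) in the REST knockout WG-BisSeq library against distance from the annotated gene start in bp (x axis), 1 panel per gene; filled points are CpGs with 10 or more observations and open points those with 1 to 9. In Esrrb 7 of the 8 filled points exceed 50%, and in the other panels no filled point does.

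Differences of the ChIP-BisSeq promoter values from the REST knockout values were tested with a two-sided Fisher exact test in each replicate, and 8 windows had at least 10 observations in every library. A window was called different when the adjusted p stayed below 0.05 in both replicates and both lay 20 or more percentage points to the same side of the REST knockout value. By this rule 0 of the 8 were called, against 0.839% of 13585 promoters called lower in ChIP-BisSeq and 0.618% called higher. All 8 had REST knockout values of at most 17.0%, so none could fall by 20 points, and the 0 bears on higher calls only. Without adjustment and without a minimum difference, 1 window had an exact-test p below 0.05 in both replicates, and 3 had one in at least 1. The former was Tbx3, where ChIP-BisSeq minus REST knockout was -3.42 and -2.84 percentage points (Fisher exact test, adjusted p = 0.0053 and 0.010). The replicates themselves differed at 1 of 8 promoters, Tfcp2l1 (Fisher exact test, adjusted p = 0.0020), against 17.0% of 13593 promoters. In Tfcp2l1 the difference lay upstream of the start, where the stretch from -500 to -251 bp had 7 of 10 methylated in replicate 1, 0 of 12 in replicate 2 and 10 of 49 in the REST knockout library.

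A list of 20 further genes of the network and of its LIF and WNT inputs gave a like picture at the promoter. In the REST knockout library, 7 were below 10% (Fgf4, Klf2, Klf5, Lifr, Stat3, Utf1 and Zfp281), 11 lay between 10 and 50%, 1 was above 50% and 1 had too few observations. The 11 were L1td1 at 11.8%, Tdgf1 at 12.4%, Fbxo15 at 12.9%, Dppa5a at 13.6%, Nr0b1 at 14.0%, Lin28a at 14.2%, Dppa4 at 17.0%, Tcl1 at 19.8%, Spp1 at 24.3%, Gbx2 at 35.7% and Il6st at 49.1%. Nr5a2, a nuclear receptor gene, had 15 of 24 observations methylated (62.5%, interval 40.6 to 81.2%). Of 14 testable genes of the list 0 were called by the rule used for the 10 genes. Among these 14 only Gbx2, at 35.7%, reached 20% in the REST knockout library, so no other could be called lower. Of the 14, 1 had an unadjusted Fisher exact test p below 0.05 in both replicates with the same direction, and 8 had one in at least 1 replicate. Il6st, which encodes gp130, the receptor subunit that LIF shares with other cytokines, had 28 of 57 in the REST knockout library, 26 of 26 in replicate 1 and 7 of 7 in replicate 2, too few in the last to be tested. At Gbx2, a homeobox gene under LIF control, replicate 1 had 9 of 14 methylated observations and replicate 2 had 0 of 14 (Fisher exact test, adjusted p = 0.0066).

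Outside the promoter windows, low-methylated bins lay upstream of, within and downstream of these genes. A bin was called low-methylated when at least 20 REST knockout observations gave less than 30% with an upper interval bound below 50%. Of 599 bins with enough observations, 139 were low (23.2%), against 6.92% of 1562964 bins in the genome. The median was 52.9% around the 10 genes and 71.4% in the genome. Bins next to genes are rarely like the average bin, and the part of gene density and CpG content in this difference was not tested. The share was 42 of 158 upstream, 83 of 390 in the gene bodies and 14 of 51 downstream.

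The genes differed widely in how much of their surroundings was low. Sox2 had 17 of 28 bins low with a median of 23.3%, and Pou5f1 had 14 of 24 with a median of 25.2%. Nanog had 14 of 30 and a median of 31.6%, Tbx3 16 of 45 and 34.5%, and Zfp42 7 of 22 and 37.9%. Sall4 had 14 of 58 and a median of 51.0%, and Klf4 had 5 of 21 and 64.2%. Esrrb, Prdm14 and Tfcp2l1 had the lowest shares, with 40 of 267, 5 of 40 and 7 of 64 bins. The 3 central factors thus had the 3 largest shares of low bins among the 10 genes.

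**Figure D3:**
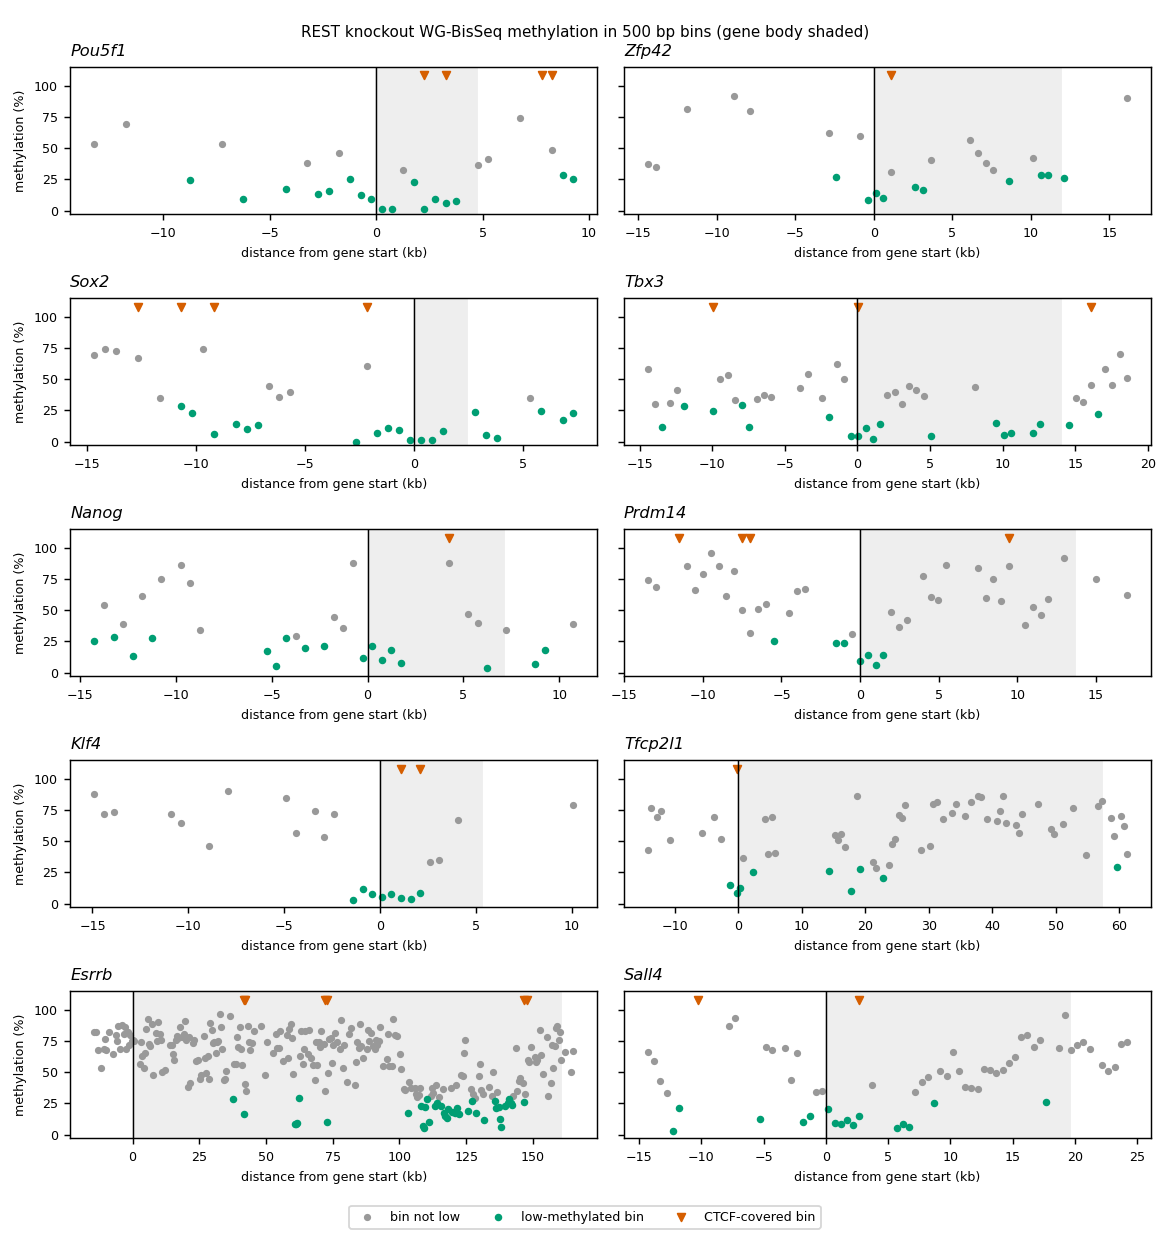
REST knockout methylation in percent (y axis) of each 500 bp bin with at least 20 observations, promoter bins included, against distance from the annotated gene start in kb (x axis; gene body shaded); green points are low-methylated bins, grey points other bins, and orange triangles at the top mark bins covered at least 5 times the library mean in both CTCF ChIP-BisSeq replicates. Low bins lie on both sides of the start in several genes, among them Pou5f1, Sox2 and Nanog. At Nanog the stretch from -1000 to -501 bp is at 87.9%. In Esrrb the low bins gather in the last part of the gene body.

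Adjacent low bins were joined into 85 stretches, of which 33 held at least 2 bins and 30 lay upstream. Upstream of Pou5f1, a stretch from -2982 to -1982 bp (chr17:35640001-35641000) had 11 of 75 observations methylated in the REST knockout library (14.7%, interval 7.56 to 24.7%), 0 of 2 in replicate 1 and 0 of 28 in replicate 2, which allows up to 10.7%. The lowest upstream value of Pou5f1 was 2 of 22 (9.09%) at -6482 to -5982 bp, where replicates 1 and 2 had 1 of 5 and 2 of 3. Within the gene, Pou5f1 had a stretch of 5 bins from 1518 to 4018 bp, with 31 of 429 (7.23%), 11 of 145 (7.59%) and 24 of 482 (4.98%). Downstream of Pou5f1, in Tcf19, a stretch from 8518 to 9518 bp had 69 of 250 (27.6%), and there the replicates were higher, with 8 of 14 and 6 of 14. The upstream region of Pou5f1 is known to hold a distal and a proximal enhancer.

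Upstream of Sox2 the low bins lay within introns of the overlapping noncoding gene Sox2ot. The lowest value was 0 of 22 observations at -2927 to -2427 bp in the REST knockout library, which allows up to 13.6%, with 2 of 13 and 1 of 8 in the replicates. The stretch from -1927 to -927 bp had 72 of 699 (10.3%), 0 of 41 (up to 7.32%) and 2 of 74 (2.70%). A longer stretch from -8427 to -6927 bp had 140 of 1215 (11.5%), 10 of 30 (33.3%) and 15 of 155 (9.68%). The stretch from -10927 to -9927 bp had 39 of 157 (24.8%), 31 of 350 (8.86%) and 59 of 428 (13.8%), and one in the Sox2 exon from 573 to 1573 bp had 79 of 2863 (2.76%), 2 of 66 (3.03%) and 2 of 162 (1.23%). Downstream of Sox2, a stretch from 2573 to 4073 bp had 25 of 225 (11.1%), 11 of 33 (33.3%) and 0 of 62 (up to 4.84%). Replicate 1 was higher than the other libraries at this stretch and at that from -8427 to -6927 bp, on 33 and 30 observations. A further Sox2 stretch from 6573 to 7573 bp had 104 of 501 (20.8%), 0 of 2 and 9 of 23 (39.1%).

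Nanog had a stretch of 3 low bins between genes from -5507 to -4007 bp (chr6:122652001-122653500), a region known to contain an upstream enhancer of Nanog. It had 48 of 470 observations methylated in the REST knockout library (10.2%, interval 7.63 to 13.3%), 6 of 17 in replicate 1 and 2 of 66 in replicate 2 (3.03%). Within it, the central bin had 17 of 327 in the REST knockout library (5.20%), 0 of 4 in replicate 1 and 0 of 17 in replicate 2, and the 6 methylated observations of replicate 1 all fell in the bin centred at -5257 bp. Between this stretch and the start lay the bin centred at -757 bp, with 29 of 33 observations methylated (87.9%). An intronic stretch of Nanog from 993 to 1993 bp had 17 of 121 (14.0%), 15 of 46 (32.6%) and 27 of 78 (34.6%), and one 8493 to 9493 bp after the start had 19 of 164 (11.6%), 16 of 29 (55.2%) and 12 of 31 (38.7%). At these last 2 stretches both replicates were above the REST knockout value that chose the bins.

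Klf4 had 1 upstream stretch next to its promoter, from -1653 to -653 bp, with 23 of 355 observations methylated in the REST knockout library (6.48%), 0 of 10 in replicate 1 (up to 30.0%) and 5 of 69 in replicate 2 (7.25%). With the promoter and the stretch from 847 to 2347 bp, where 181 of 3219 (5.62%), 28 of 696 (4.02%) and 33 of 1145 (2.88%) were methylated, the low bins of Klf4 surrounded its start. Zfp42 had a single upstream low bin at -2637 to -2137 bp, with 21 of 79 (26.6%), 4 of 4 and 0 of 1. In its gene body, Zfp42 stretches at 2363 to 3363 bp and 10363 to 11363 bp had 16 of 88 (18.2%) and 267 of 928 (28.8%) in the REST knockout library. Both replicates were higher there, with 2 of 6 and 7 of 10 at the former and 2 of 5 and 32 of 74 (43.2%) at the latter.

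Tbx3 had low stretches of 500 to 1500 bp upstream, within and downstream of the gene. Upstream, the bin at -13678 to -13178 bp had 16 of 137 observations methylated in the REST knockout library (11.7%, interval 6.82 to 18.3%), 0 of 8 in replicate 1 and 0 of 30 in replicate 2 (up to 10.0%). The stretch of Tbx3 from -8178 to -7178 bp had 33 of 188 (17.6%), 0 of 5 and 8 of 26 (30.8%). Within the gene, stretches at 822 to 1822 bp, 9322 to 10822 bp and 11822 to 12822 bp overlapped exons and had 7.23%, 5.76% and 7.82% in the REST knockout library. Replicate 1 had 0 of 51, 0 of 95 and 1 of 9 there, and replicate 2 had 6 of 125, 3 of 105 and 2 of 40, so these 3 stretches were low in each library, on 9 observations in replicate 1 at the last.

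Prdm14, Tfcp2l1 and Sall4 had 3, 1 and 5 low bins upstream. Prdm14 had a stretch from -1756 to -756 bp with 54 of 229 observations methylated in the REST knockout library (23.6%), 3 of 5 in replicate 1 and 10 of 60 in replicate 2 (16.7%), and one from 744 to 1744 bp with 72 of 671 (10.7%), 2 of 18 and 4 of 50. Tfcp2l1 had 1 upstream low bin, at -1522 to -1022 bp, with 3 of 20, no observation in replicate 1 and 1 of 15 in replicate 2. Sall4 had 15 of 171 (8.77%, interval 4.99 to 14.1%), 6 of 21 (28.6%) and 14 of 58 (24.1%) at -12557 to -11557 bp. Nearer the Sall4 start, the stretch from -2057 to -1057 bp had 18 of 135 (13.3%), 5 of 5 and 2 of 22 (9.09%). Its gene body held stretches from 943 to 2943 bp at 10.5%, 2.05% and 2.97% and from 5443 to 6943 bp at 6.92%, 71.4% of 7 and 9.38% of 32.

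Esrrb had no low bin among 20 in the 15 kb upstream of its first start, where the median was 78.1%. Between the first and second starts 2 of 89 bins were low, with a median of 73.0%, and between the second and the third 6 of 73, with a median of 68.2%. From the third start to the end of the gene, 29 of 78 bins were low (37.2%) and the median was 33.8%. The same 4 segments, without CTCF-covered bins, gave 78.4%, 82.0%, 57.8% and 60.9% in replicate 1 and 89.2%, 83.0%, 70.5% and 39.8% in replicate 2. Replicate 2 thus had its lowest value in the last segment, and replicate 1 had like values in the last 2.

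Each internal start of Esrrb lay in a low stretch. The one from 60433 to 62433 bp (chr12:87762501-87764500) had 316 of 3281 observations methylated in the REST knockout library (9.63%, interval 8.64 to 10.7%), 18 of 68 in replicate 1 (26.5%) and 16 of 183 in replicate 2 (8.74%). The one from 107933 to 110433 bp (chr12:87810001-87812500) had 104 of 1414 (7.36%, interval 6.05 to 8.84%), 12 of 39 (30.8%) and 16 of 65 (24.6%). Further intronic Esrrb stretches followed at 116433 to 118433 bp with 15.6%, at 121433 to 122433 bp with 17.4%, at 135433 to 136433 bp with 24.6%, at 136933 to 138433 bp with 16.7% and at 140433 to 142433 bp with 25.4%. At 136933 to 138433 bp both replicates were low as well, with 1 of 18 and 1 of 23, whereas at 121433 to 122433 bp they had 6 of 7 and 7 of 12. The ESRRB element TCAAGGTCA, searched on both strands, matched 2 places in the Esrrb stretch from 140433 to 142433 bp, and 1.09% of all bins hold it. It also matched a low bin at 125683 bp. Most matches within the gene lay in bins not called low, such as those at 4683, 25183 and 78183 bp.

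Since the REST knockout values chose the low bins, the ChIP-BisSeq libraries give the reading that the choice did not use. Over the 128 low bins that were not CTCF-covered, replicate 1 had 243 of 1052 observations methylated (23.1%) and replicate 2 had 412 of 2662 (15.5%). Over the 446 bins at 30% or more, the values were 921 of 1335 (69.0%) and 2287 of 3532 (64.8%). In the genome as a whole, low bins had 10.3% and 11.0% and the other bins 83.4% and 80.7%. The bins of the pluripotency genes were thus separated in both replicates in the same direction, with a smaller distance between the 2 classes than in the genome. The classes were also closer in the REST knockout library that chose them, with 11.9% and 59.5% around the 10 genes and 7.76% and 70.9% in the genome.

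This reading differed by gene. The low bins of Klf4 had 0 of 54 and 12 of 179 methylated observations in replicates 1 and 2, those of Tbx3 15 of 202 and 36 of 401, and those of Sox2 25 of 186 and 38 of 514. Those of Pou5f1 had 21.7% and 12.4%, those of Sall4 20.7% and 14.1%, and those of Prdm14 26.7% and 12.7%. Those of Esrrb had 36.9% and 17.1%. The low bins of Nanog stood higher, with 44 of 104 (42.3%) and 84 of 240 (35.0%), against 37 of 38 and 78 of 135 in its other bins. In Zfp42 the low bins had 47.6% and 44.9% and the other bins 58.1% and 35.3%, so the classes were not separated in replicate 2. In Tfcp2l1 the low bins had 21 of 25 (84.0%) and 21 of 56 (37.5%) and the other bins 78.7% and 75.5%, so they were not separated in replicate 1.

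**Figure D4:**
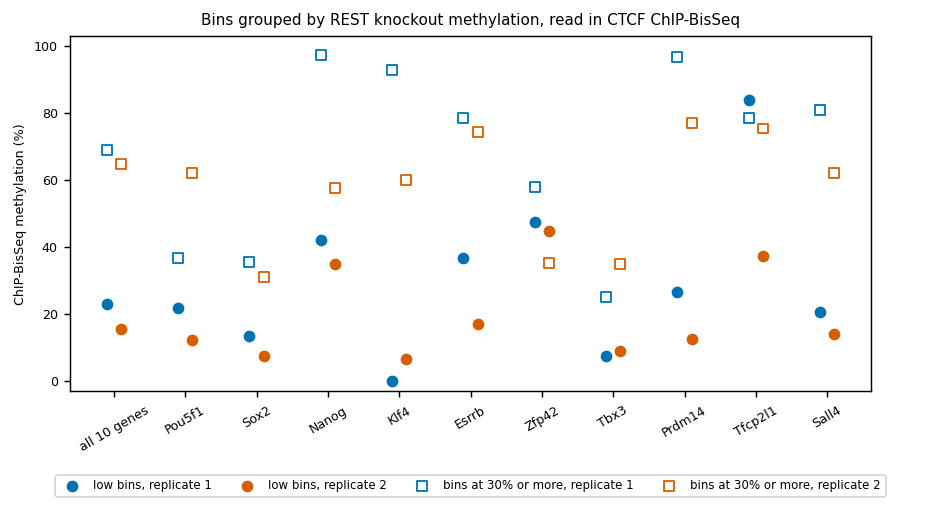
CTCF ChIP-BisSeq methylation in percent (y axis) of bins that were low (filled circles) or at 30% or more (open squares) in the REST knockout library, summed per gene (x axis) in replicate 1 (blue) and replicate 2 (orange), without CTCF-covered bins. Over all 10 genes the low bins lie at 23.1% and 15.5% and the other bins at 69.0% and 64.8%; Zfp42 in replicate 2 and Tfcp2l1 in replicate 1 do not follow this order.

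CTCF coverage marked 28 bins around the 10 genes, 2 of them at the promoters of Tbx3 and Tfcp2l1. A bin was called CTCF-covered when its mean coverage per CpG reached 5 times the mean of the library in both replicates, with at least 10 observations in each. The library means were 0.596 and 1.05 observations per CpG in replicates 1 and 2, so the rule can be met by few reads. Outside the promoter windows 26 of 947 bins were covered (2.75%), against 0.858% of all bins in the genome. No input library was analysed here, and the coverage of the REST knockout library relative to its own mean is given for the bins where it exceeded 3. Nanog just missed the rule at 1743 bp, in an intronic bin with 2 matches to the CTCF consensus, at 5.87 and 3.97 times the mean.

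The covered bins that hold a match to the CTCF core consensus are shown by their matched 20 bases, since some contain CpGs that can be methylated. The 13 consensus positions are in capitals. Contact of CTCF with these bases was not measured. The Sall4 bin has a further match that crosses its edge and is not shown. The consensus was searched on both strands, 1.30% of all bins and 30.4% of covered bins in the genome hold it, and 6 of the 28 covered bins here do.
Sox2, -2177 bp (chr3:34546806-34546825, minus strand): gctgCGCCCCCTGCTGGtgg
Esrrb, 41683 bp (chr12:87743872-87743891, plus strand): agcgCGCCCTCTGGTGGcgc
Esrrb, 147683 bp (chr12:87849738-87849757, minus strand): atgaCGCCCTCTTCTGGttt
Pou5f1, 2268 bp (chr17:35645389-35645408, minus strand): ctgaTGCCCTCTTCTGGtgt
Pou5f1, 8268 bp (chr17:35651016-35651035, plus strand): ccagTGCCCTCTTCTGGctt
Sall4, -10307 bp (chr2:168603621-168603640, minus strand): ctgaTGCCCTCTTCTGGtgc
The core of the last 3, TGCCCTCTTCTGG, occurs 38546 times among 66204 consensus matches in the genome, and CGCCCTCTTCTGG of the Esrrb bin at 147683 bp occurs 10023 times. The Sox2 core CGCCCCCTGCTGG and the core CGCCCTCTGGTGG of Esrrb at 41683 bp occur 321 and 199 times.

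Sox2 had the most strongly covered bin of the group, centred at -9177 bp from its start (chr3:34539501-34540000). Coverage there was 70.2 and 66.3 times the mean in replicates 1 and 2, and 64 of 921 observations (6.95%), 100 of 1530 (6.54%) and 16 of 270 in the REST knockout library (5.93%) were methylated. This bin was low in all 3 libraries, with overlapping intervals, and contains no exact consensus match. At -10677 bp, Sox2 was covered 53.2 and 35.1 times the mean, with 31 of 349 (8.88%), 52 of 405 (12.8%) and 13 of 45 (28.9%).

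The most significant call lay at the Sox2 bin centred at -2177 bp (chr3:34546501-34547000), in a Sox2ot intron. It was covered 28.5 and 18.8 times the mean and had 26 of 340 observations methylated in replicate 1 (7.65%, interval 5.06 to 11.0%), 24 of 395 in replicate 2 (6.08%, interval 3.93 to 8.91%) and 41 of 68 in the REST knockout library (60.3%, interval 47.7 to 72.0%). ChIP-BisSeq minus REST knockout was -52.6 and -54.2 percentage points (two-sided Fisher exact test, adjusted p = 3.1e-18 and 3.0e-21). Its neighbours in the plot of bins, at -2677 bp and from -1927 bp on, were low in the REST knockout library. At the Sox2 bin centred at -12677 bp, 11 of 43 (25.6%), 41 of 101 (40.6%) and 28 of 42 (66.7%) observations were methylated (Fisher exact test, adjusted p = 0.0018 and 0.029).

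Pou5f1 was covered at 4 bins, 2 in its exons and 2 in the neighbouring gene Tcf19. The bin centred at 2268 bp was covered 16.1 and 39.7 times the mean and had 2 of 67 (2.99%), 18 of 292 (6.16%) and 1 of 66 (1.52%) methylated observations, so it was low in every library. The bin at 3268 bp was covered 9.31 and 9.44 times, with 9 of 61 (14.8%), 2 of 109 (1.83%) and 9 of 157 (5.73%), and there the replicates differed (Fisher exact test, adjusted p = 0.018). At 8268 bp, coverage was 22.8 and 10.9 times the mean, and 13 of 68 (19.1%), 3 of 57 (5.26%) and 15 of 31 (48.4%) were methylated (ChIP-BisSeq against REST knockout, Fisher exact test, adjusted p = 0.019 and 7.0e-05).

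Esrrb was covered at 6 bins, all within introns. The bin centred at 41683 bp, between the first and second starts, was covered 54.3 and 43.1 times the mean and had 58 of 712 (8.15%), 58 of 994 (5.84%) and 141 of 860 (16.4%) methylated observations. Relative coverage of that bin was 4.96 in the REST knockout library too, and the part of this in its ChIP-BisSeq coverage was not tested. It was 1 of only 2 low bins in this segment of the gene, where the median was 73.0%. The bin at 147683 bp was covered 25.2 and 29.5 times, with 19 of 45 (42.2%), 19 of 93 (20.4%) and 10 of 12, and the bin at 72183 bp 26.3 and 18.7 times, with 38 of 141 (27.0%), 25 of 177 (14.1%) and 28 of 80 (35.0%).

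Zfp42 and Sall4 each had 1 strongly covered bin inside the gene. In the Zfp42 intron at 1113 bp (chr8:44391001-44391500), coverage was 18.3 and 15.7 times the mean, and 5 of 164 (3.05%), 14 of 247 (5.67%) and 42 of 135 (31.1%) observations were methylated (Fisher exact test, adjusted p = 9.0e-10 and 3.9e-09). In the Sall4 exon at 2693 bp (chr2:168590501-168591000), coverage was 32.6 and 21.0 times, and 6 of 564 (1.06%), 17 of 638 (2.66%) and 62 of 410 (15.1%) were methylated. Both Sall4 differences passed the exact test (adjusted p = 6.4e-16 and 1.9e-11) but, at -14.1 and -12.5 percentage points, not the minimum size of 20. From a REST knockout value of 15.1% that size could not be reached. Upstream of Sall4, the bin at -10307 bp was covered 7.83 and 5.72 times with 10 of 14 and 16 of 18 methylated, and had only 2 observations in the REST knockout library.

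Klf4 was covered at 2 bins that were low in all libraries. At 1097 bp they were 5 of 184 (2.72%), 10 of 379 (2.64%) and 45 of 1033 (4.36%), and at 2097 bp 23 of 468 (4.91%), 16 of 656 (2.44%) and 100 of 1187 (8.42%). Relative coverage of the REST knockout library was 3.54 and 4.56 in these CpG-rich bins, against 8.35 and 9.76 and 23.8 and 18.9 in the replicates. Nanog was covered at 1 bin, at 4243 bp, by 5.59 and 6.03 times the mean, close to the limit of 5 and without an exact consensus match. That bin had 16 of 20 (80.0%), 30 of 38 (78.9%) and 36 of 41 (87.8%), which made it one of the few covered bins that were methylated in every library.

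At Tbx3 and Prdm14 the covered bins varied more. In Tbx3, the promoter bin had 3 of 316 (0.949%), 4 of 429 (0.932%) and 55 of 1162 (4.73%) methylated observations, with REST knockout coverage at 3.21 times its mean, the bin at 16072 bp had 26 of 173 (15.0%), 4 of 98 (4.08%) and 18 of 40 (45.0%; Fisher exact test against REST knockout, adjusted p = 0.0012 and 8.3e-07), and the bin at -9928 bp had 6 of 91 (6.59%), 40 of 162 (24.7%) and 88 of 354 (24.9%), with REST knockout coverage again at 3.21 times. The last did not give like values in the replicates (Fisher exact test, adjusted p = 0.0045). In Prdm14, the bin at -7506 bp had 30 of 82 (36.6%), 45 of 193 (23.3%) and 57 of 113 (50.4%), and the bin at 9494 bp 27 of 40 (67.5%), 26 of 32 (81.3%) and 17 of 20 (85.0%). At -7006 and -11506 bp the Prdm14 replicates lay far apart, with 20 of 20 against 18 of 52 and 6 of 19 against 51 of 57. Coverage of these Prdm14 bins was 5.59 and 8.26 times the mean at -7006 bp and 7.97 and 13.6 times at -11506 bp. The Tfcp2l1 promoter bin was covered 9.84 and 9.15 times the mean with 17 of 88 (19.3%), 1 of 144 (0.694%) and 38 of 458 (8.30%), had REST knockout coverage at 3.87 times, and holds the ESRRB element at chr1:120524036-120524044 on the minus strand.

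**Figure D5:**
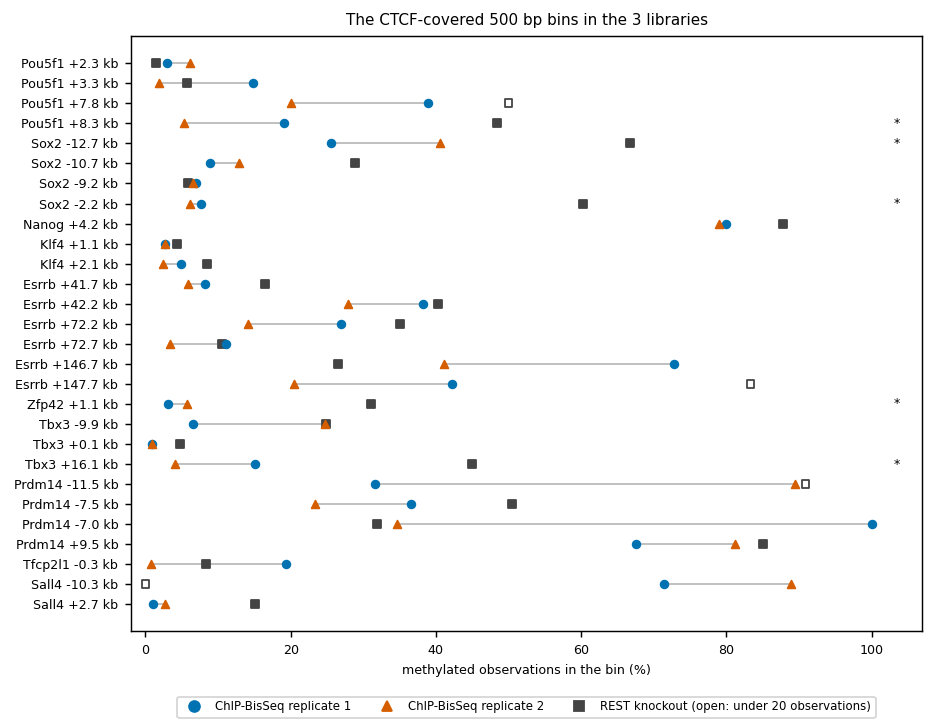
Methylated observations in percent (x axis) in each of the 28 CTCF-covered bins (y axis, gene and distance from its start in kb) in ChIP-BisSeq replicate 1 (circles), replicate 2 (triangles) and the REST knockout library (squares, open where it had fewer than 20 observations); asterisks mark bins called lower in both replicates. The REST knockout value lies to the right of both replicates at 17 of the 24 bins with at least 20 REST knockout observations.

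Over the 24 covered bins with at least 20 REST knockout observations, median methylation was 12.9% in replicate 1, 6.12% in replicate 2 and 27.7% in the REST knockout library. Over all 27403 such bins of the genome the medians were 29.9%, 24.3% and 39.0%. Both replicates lay below the REST knockout value at 17 of 24 bins (70.8%), and at 52.8% in the genome. The replicates were within 20 percentage points of each other at 22 of 24 (91.7%), and at 83.0% in the genome. CTCF precipitation selects the molecules that carry CTCF whereas WG-BisSeq reads all molecules, so this comparison is also one between fractions of the chromatin and cannot be told apart from genotype and strain.

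Of 77 bins outside the promoter windows with at least 10 observations in every library, 7 were called lower in ChIP-BisSeq and 4 higher, against 4.58% and 3.46% of 111574 bins of the genome. The 2 replicates differed at 14 of 79 bins, against 15.2% in the genome. Besides the 5 covered bins named above at Sox2, Pou5f1, Zfp42 and Tbx3, the lower bins were at -928 bp of Tbx3, with 0 of 25 (up to 12.0%), 3 of 30 (10.0%) and 27 of 54 (50.0%; Fisher exact test, adjusted p = 4.2e-05 and 0.0026), and at 15572 bp of Tbx3, with 3 of 79 (3.80%), 2 of 105 (1.90%) and 13 of 41 (31.7%; adjusted p = 0.00057 and 2.1e-05 by the same exact test). The second of these was covered 5.52 and 4.17 times the mean, just short of the rule.

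The 4 higher bins were not CTCF-covered. In the Prdm14 exon at 8494 bp, 30 of 30 observations were methylated in each replicate and 269 of 360 in the REST knockout library (74.7%; Fisher exact test, adjusted p = 0.0034 and 0.0037). In the Tbx3 exon at 3572 bp the values were 12 of 12, 13 of 14 and 44 of 99 (44.4%; adjusted p = 0.0022 and 0.0070 by the exact test). In the Sall4 exon at 12193 bp they were 18 of 22 (81.8%), 21 of 35 (60.0%) and 306 of 830 (36.9%; exact test, adjusted p = 0.00058 and 0.034). Downstream of Nanog at 9243 bp they were 16 of 16, 12 of 26 (46.2%) and 12 of 65 (18.5%; exact test, adjusted p = 5.3e-08 and 0.042), and there the replicates also differed from each other (exact test, adjusted p = 0.0034).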

How the data were processed

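The authors deposited 1 table per library that lists CpG positions with the count of all observations and the count of methylated observations. Per the labels' protocols and processing notes these came from bisulfite reads, with mm9 and Bowtie 0.10.0.1 named; duplicate removal and the merging of strands are not given in the sources used here. All listed positions on the chromosomes used were the C of a plus-strand CpG, so both strands were taken as merged. Starts, ends and transcripts came from GENCODE vM1 on mm9. The members, lists and rules were chosen with earlier results of these data known.

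Counts were summed over promoter windows (gene start ± 500 bp) and 500 bp bins. Library means left out CpGs covered over 100 times. Each replicate was tested against the REST knockout library by a two-sided Fisher exact test with Benjamini-Hochberg adjustment over all genome windows with at least 10 observations in each library. Such a test compares libraries: the REST knockout has 1. Replicates are separate libraries, and whether their cultures were separate is not stated, so their spread may be technical. Genes, the lowest upstream low stretch, stretches of at least 2 bins, covered bins and called bins were named, with at most 3 covered bins and 3 called bins a gene in full; further covered bins are named where they bear on these. Promoter sequence came from the mm9 genome. Scripts used Python 3.11.15, NumPy 2.4.6, pandas 2.3.3, SciPy 1.17.1 and Numba 0.67.0, were tested on simulated data, and tried other windows, starts, minimums, thresholds, bin lattices and single replicates.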

Additional observations from a re-analysis of the deposited data

How the results depend on the processing

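With the start of the transcript with the longest coding sequence, 0 promoters instead of 1 were above 50%, since Esrrb is then read at its second start. Promoters below 10% numbered 5 with that start, instead of 4. They numbered 6 within 250 bp of the start and 6 by the mean over CpGs covered at least 10 times. The genome share of 54.7% below 10% belongs to the main setting only, so whether the 10 genes lie below or above it depends on the setting. With no minimum difference, 1 promoter instead of 0 differed between ChIP-BisSeq and REST knockout. Low bins numbered 84 below 20% and 277 below 50%, instead of 139, and covered bins 14 at 10 times the mean, instead of 28. Bins called different numbered 76 of 334 testable with pooled replicates, where both replicates need not pass, instead of 11 of 77. Leaving out either replicate gave 33 to 40 covered bins and 0 called promoters. Called bins were then 50 of 243 testable without replicate 1 and 30 of 101 without replicate 2, where 1 replicate alone had to pass. Genome shares under these settings and under pooling are not given here, so these counts cannot be set against a background. Of 40 single promoter values under other windows, starts and averaging, 30 moved by less than their counting interval; Nanog rose to 36.0% and Sall4 to 31.7% within 250 bp of the start. No paired analysis was possible because the REST knockout has 1 library and shares at most 1 replicate number with ChIP-BisSeq. Depth limits the ChIP-BisSeq values: replicate 1 had no observation at the first Esrrb start and 8 at Zfp42.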
